A study of Mus musculus with 18 samples.

Results

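The Ms4a genes encode membrane proteins that cross the bilayer 4 times and are made mainly by blood and immune cells. Described here are 6 of them, Ms4a7, Ms4a4a, Ms4a4c, Ms4a6b, Ms4a6c and Ms4a6d, taken by name from the 35869 gene symbols measured in microglia and astrocytes of mouse brain. All 6 were listed in every library, and all 6 reached 1 TPM (a share of the library's transcripts, scaled to a fixed sum and corrected for transcript length) in every microglia library.

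The cells came from the brains of C57BL/6 mice, were dissociated with enzymes and inhibitors, and were sorted by flow cytometry. Every animal, controls included, carried Cx3cr1CreERT2, a recombinase that tamoxifen switches on in microglia and in other macrophages that express Cx3cr1, and received tamoxifen by gavage, 5 times at 180 mg/kg. Controls, which the labels also call WT, had no further allele named. The animals called KO here were Cx3cr1CreERT2-Tgfb1fl/fl: their Tgfb1 gene, which encodes the ligand TGF-beta 1, can be cut out wherever the recombinase is active. Microglia were compared from 4 controls (animals 1, 2, 4 and 5) and 4 KO animals (1 to 4), and astrocytes from 5 controls (1 to 5) and the same 4 KO animals. The age of the animals is not given in the sources used here, and 1 library listed with the controls was left out because its labels name different cell types.

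TGF-beta signals through membrane receptors to SMAD proteins in the nucleus and keeps microglia in their resting state. Ms4a proteins lie in the plasma and endosomal membrane beside receptors of innate immunity. Ms4a1 is CD20 of B cells, Ms4a2 is the beta chain of the mast cell IgE receptor, and Ms4a4a associates with Clec7a, the receptor for fungal glucans, in macrophages. Ms4a7 is used in mouse brain as a marker of macrophages at the borders of the brain, which tells them from microglia. In people, variants near MS4A4A and MS4A6A are linked to Alzheimer's disease and to the level of soluble TREM2.

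All 6 genes lay on chromosome 19 of the GRCm38 build within 284 kb, inside a run of 19 Ms4a genes that spanned 679 kb. Ms4a7 was at 11321039 to 11336146 on the minus strand and was followed by Ms4a4a at 11375523 to 11392790 on the plus strand. Ms4a4c came next, at 11404770 to 11427246 on the plus strand, and overlapped the pseudogene Gm5692. Ms4a6c, at 11469366 to 11482192 on the plus strand, overlapped the minus-strand transcript BE692007. Ms4a6b, at 11516512 to 11531256 on the plus strand, overlapped the antisense transcript Gm19261. Ms4a6d closed the row at 11586604 to 11604849 on the minus strand.

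RefSeq promoter sequences (GRCm38.p6, 250 bases before to 50 after the start) matched 5 of the 6 genes. They are shown for the pair that changed most in microglia, Ms4a7 and Ms4a4a. They are also shown for a pair of neighbours whose promoters share a long run, Ms4a6c and Ms4a6b. The Ms4a7 sequence is chr19:11336097-11336396 on the minus strand, and that of Ms4a4a is chr19:11375238-11375537 on the plus strand. Those of Ms4a6c and Ms4a6b are chr19:11469118-11469417 and chr19:11518309-11518608, both on the plus strand. In the Ms4a7 promoter the capitals mark CAGACA, the SMAD box, and GAGGAA, a core of PU.1 sites. In the Ms4a4a promoter they mark both matches to TGCTGA, a motif of MAF factors, the second read from the other strand, and in the last pair they mark the longest run that both genes share.
Ms4a7: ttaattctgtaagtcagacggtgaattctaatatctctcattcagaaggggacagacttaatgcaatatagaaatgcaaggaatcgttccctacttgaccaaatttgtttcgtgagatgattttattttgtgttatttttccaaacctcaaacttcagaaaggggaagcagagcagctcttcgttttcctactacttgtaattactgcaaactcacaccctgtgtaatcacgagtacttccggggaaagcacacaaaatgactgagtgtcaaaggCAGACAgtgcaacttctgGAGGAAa
Ms4a4a: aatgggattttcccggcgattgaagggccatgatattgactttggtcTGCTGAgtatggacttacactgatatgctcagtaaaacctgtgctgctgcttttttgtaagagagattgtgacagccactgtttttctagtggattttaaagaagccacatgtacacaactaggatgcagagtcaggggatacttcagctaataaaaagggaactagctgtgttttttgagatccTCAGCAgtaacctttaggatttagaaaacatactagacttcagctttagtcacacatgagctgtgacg
Ms4a6c: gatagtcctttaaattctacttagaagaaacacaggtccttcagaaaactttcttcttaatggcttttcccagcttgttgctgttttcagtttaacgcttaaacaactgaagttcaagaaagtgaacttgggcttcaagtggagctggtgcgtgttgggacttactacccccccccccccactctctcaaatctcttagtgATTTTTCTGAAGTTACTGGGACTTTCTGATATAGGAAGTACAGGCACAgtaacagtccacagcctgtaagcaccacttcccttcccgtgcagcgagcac
Ms4a6b: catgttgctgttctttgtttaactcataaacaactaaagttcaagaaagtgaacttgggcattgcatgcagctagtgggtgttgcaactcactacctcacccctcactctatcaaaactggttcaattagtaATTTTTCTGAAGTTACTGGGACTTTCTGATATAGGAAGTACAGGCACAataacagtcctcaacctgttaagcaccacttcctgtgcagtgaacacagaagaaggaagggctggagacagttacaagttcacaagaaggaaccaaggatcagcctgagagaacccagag
The shared run of Ms4a6c and Ms4a6b was 48 bases long, and of the 32851 promoters in the table only those of these genes held it. When the promoters of Ms4a6c and Ms4a6b were aligned with free ends, 194 of 218 aligned bases (89.0%) were identical. By the same method the other pairs had 67.4% to 85.1%, the highest over 47 aligned bases. Ms4a4c and Ms4a6b had 185 identical of 255, so the count of identical bases alone does not set a pair apart. No pair but Ms4a6c and Ms4a6b, among the members with a promoter, shared a run of over 9 bases.

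Searched on both strands, 7 short motifs gave 6 matches in the 6 promoters of these 5 genes (Ms4a7 has a second start), and none of the matches overlapped. GAGGAA stood in 2 of the 6 promoters, that of Ms4a7 at base 44 after the start and that of Ms4a4c at base -61, and in 28.3% of all promoters. CAGACA stood in 1, Ms4a7 at base 26, and in 21.0% of all. TGCTGA stood in the promoter of Ms4a4a at bases -203 and -18, and in 19.5% of all promoters. The AP-1 motif TGANTCA stood at base -81 of the second Ms4a7 start, and in 7.81% of all. The interferon response element, GTCTAGAC (SMAD palindrome) and TTGCNNAA (C/EBP) had no match in these windows, against 3.44%, 0.213% and 10.8% of all promoters. These matches are short letter patterns and are given as a description.

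The targeted gene was low in all libraries. Control microglia had 3.00 ± 0.271 TPM of Tgfb1 RNA and KO microglia 1.70 ± 0.294 TPM (SD, n = 4 each), and the groups did not overlap. The log2(TPM + 1) value fell by 0.57 (exact two-sided permutation test, p = 0.0286, the smallest that 4 against 4 allows). In the limma fit over all genes its adjusted p was 0.0258, and 10 of the 18 alternative settings gave an adjusted p above 0.05.

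With Tgfb1 targeted, 5 of the 6 Ms4a genes rose in microglia and none fell. The rise ran from 3.5-fold for Ms4a6b to 26.4-fold for Ms4a7 in the ratio of mean TPM, and Ms4a6d did not pass the test. Over all 13054 genes tested 28.4% were called, 14.2% higher and 14.2% lower (limma, Benjamini-Hochberg adjusted p under 0.05), and 14.8% had all KO values above all control values. The median log2 difference was 2.70 over the 6 members and 0.00 over all tested genes.

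**Figure D1:**
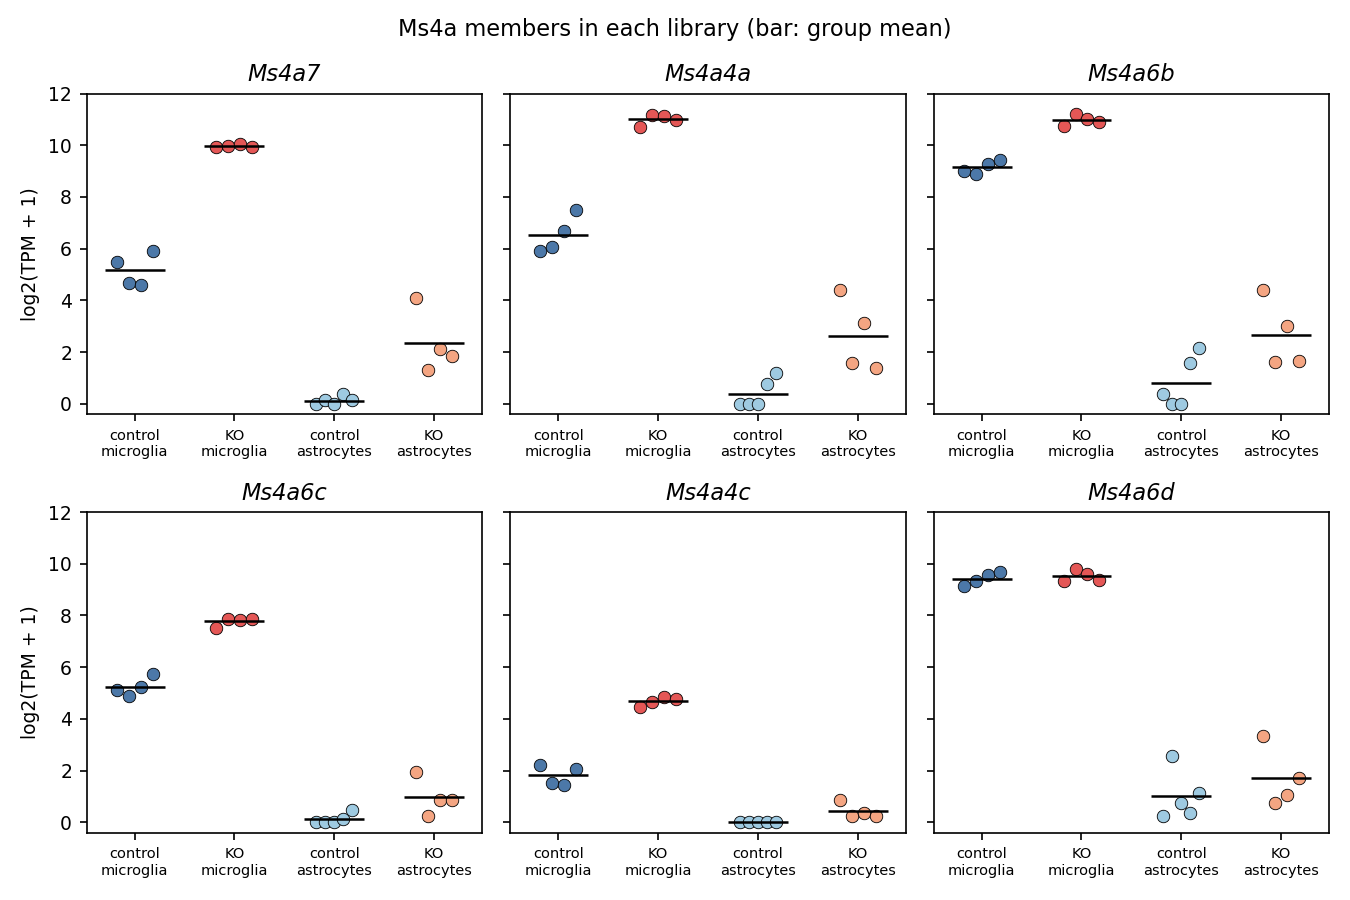
Each point is 1 library and each bar a group mean, with log2(TPM + 1) on the vertical axis and the 4 groups on the horizontal axis, 1 panel per gene. In microglia the KO points of Ms4a7, Ms4a4a, Ms4a6b, Ms4a6c and Ms4a4c all lie above the control points, those of Ms4a6d overlap them, and the astrocyte points lie below the microglia points in every panel.

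Ms4a7, the border macrophage marker, was at 44.2, 24.6, 23.4 and 59.6 TPM in the microglia of control animals 1, 2, 4 and 5. It was at 978.1, 1005.4, 1057.4 and 973.1 TPM in those of KO animals 1 to 4. The KO libraries were close together while the controls spread over more than a doubling, and the groups were far apart. The means were 38.0 ± 17.3 and 1004 ± 38.6 TPM (SD, n = 4 each), and the log2(TPM + 1) difference was 4.80 (SE 0.266, limma adjusted p = 1.46e-06). That difference ranked 12 of 13054 from the top.

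Ms4a4a, the partner of Clec7a, was at 59.5, 66.5, 101.6 and 177.2 TPM in the control microglia. It was at 1690.1, 2328.1, 2250.2 and 2010.2 TPM in the KO microglia. The lowest KO library stood well above the highest control, that of animal 5. The means were 101.2 ± 53.9 and 2070 ± 287 TPM (SD, n = 4 each), a 20.5-fold ratio, with a log2 difference of 4.47 (SE 0.302, limma adjusted p = 5.18e-06, rank 20).

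Ms4a6b, already among the abundant members in controls, was at 512.4, 474.0, 622.4 and 693.7 TPM in control microglia. In KO microglia it was at 1725.2, 2334.7, 2094.5 and 1912.2 TPM. The groups did not overlap, and the log2 difference of 1.81 (SE 0.139, limma adjusted p = 1.09e-05) was the smallest among the 5 genes that rose. Its neighbour Ms4a6c was at 33.6, 28.9, 36.2 and 52.1 TPM in controls, and at 183.7, 231.7, 228.2 and 231.9 TPM in KO microglia. KO animal 1 was the low one of its group and still stood above all controls, and the log2 difference was 2.53 (SE 0.173, limma adjusted p = 5.39e-06). Although the promoters of Ms4a6c and Ms4a6b share a run of 48 bases, Ms4a6b was the more abundant gene in every microglia library. Ms4a6c had the larger fold, 5.81 against 3.5. The difference between those folds was not tested.

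Ms4a4c, a member known from monocytes, was the scarcest. It was at 3.7, 1.9, 1.7 and 3.2 TPM in control microglia and at 20.8, 24.1, 27.9 and 26.5 TPM in KO microglia. Here too the groups did not overlap, and the log2 difference was 2.87 (SE 0.212, limma adjusted p = 8.79e-06). The ratio of mean TPM was 9.46.

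Ms4a6d was the most abundant member in controls and did not pass the test. Its values were 555.8, 646.1, 751.3 and 810.8 TPM in control microglia, and 644.2, 877.4, 781.5 and 662.6 TPM in KO microglia. The groups overlapped over most of their range. The means were 691 ± 113 and 741.4 ± 109 TPM (SD, n = 4 each), and the log2 difference was 0.10 (SE 0.142, limma adjusted p = 0.641). The exact permutation p, two-sided, was 0.571, and the difference was -0.0366 with quantile normalization, so its sign depended on the scaling.

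**Figure D2:**
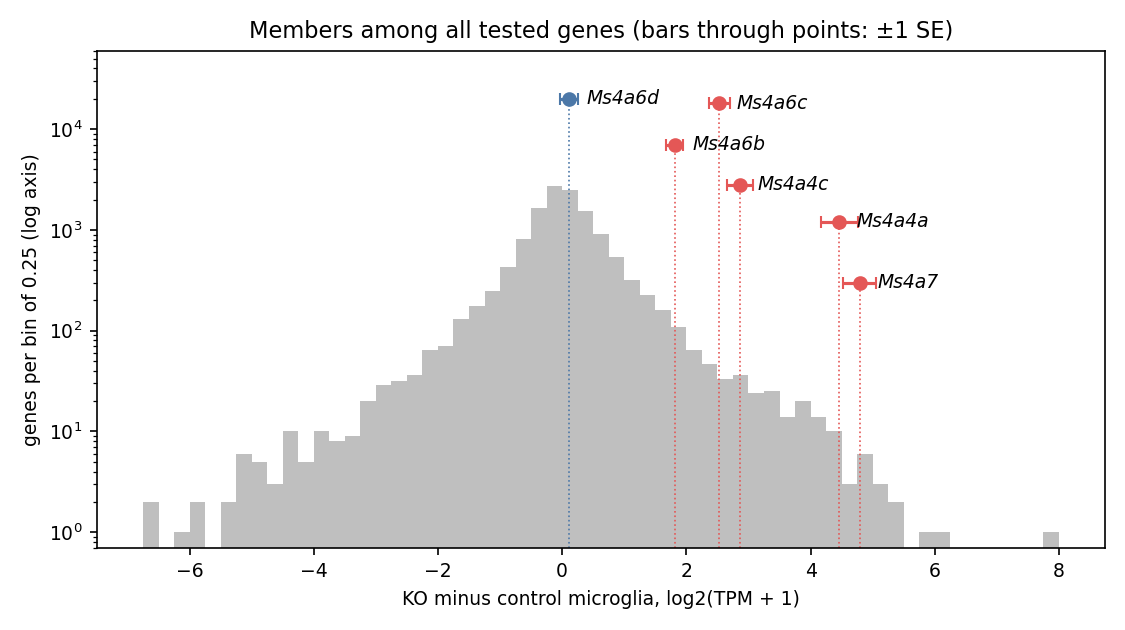
Grey bars count the 13054 tested genes by their difference between KO and control microglia in log2(TPM + 1), on a log axis of genes per bin, and points with bars of 1 SE mark the Ms4a members, whose height on the axis has no meaning. Ms4a7 (4.80) and Ms4a4a (4.47) lie in the thin upper end, Ms4a4c, Ms4a6c and Ms4a6b in between, and Ms4a6d (0.10) at the centre.

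Several other features moved along with genotype or within the control group. The KO animals and control animals 1 and 2 had Xist RNA, while control animals 4 and 5 had Ddx3y RNA in place of it, and the labels give no sex. Against the controls without Y-linked RNA the log2 differences were 4.88 for Ms4a7 and 5.01 for Ms4a4a, and against those with it 4.71 and 3.93 (limma). In both of these fits 5 members were called higher. Animal 5 had the highest control value of 5 members, all but Ms4a4c, and the highest control value of Mrc1, at 184.0 TPM against 78.1 to 91.8 in the others. The early-response genes Fos and Jun, which are known to rise when cells are handled or stimulated, were separated by genotype too. Fos was at 7.25 ± 5.26 TPM in control and 139.6 ± 36.2 TPM in KO microglia (SD, n = 4 each), with no overlap. Jun was at 127.6 to 283.7 TPM in control and 311.8 to 377.8 TPM in KO microglia. Their part in the Ms4a values was not tested.

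The family's summed level rose, and its make-up differed between genotypes. The 6 genes together came to between 1209 and 1797 TPM in control microglia and between 5242 and 6801 TPM in KO microglia. Ms4a6d held 48.0% ± 3.12 (SD, n = 4) of that sum in controls and 12.2% ± 0.618 in KO. Ms4a4a went from 6.68% ± 2.23 to 34.0% ± 1.22, and Ms4a7 from 2.62% ± 1.03 to 16.6% ± 1.6. Ms4a6b held a large share in both, 39.9% ± 1.93 and 33.1% ± 0.79, although its level rose. Shares are fractions of 1 sum, so a larger share of one gene lowers the others.

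The order of the genes changed with it. In all 4 control libraries Ms4a6d came first, then Ms4a6b, then Ms4a4a. Ms4a7 and Ms4a6c then swapped places between animals, so their order does not hold beyond the spread, and Ms4a4c was last. In KO microglia Ms4a6b led in animals 1 and 2 and Ms4a4a in animals 3 and 4. Behind that pair came Ms4a7, Ms4a6d, Ms4a6c and Ms4a4c in all 4 KO libraries.

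**Figure D3:**
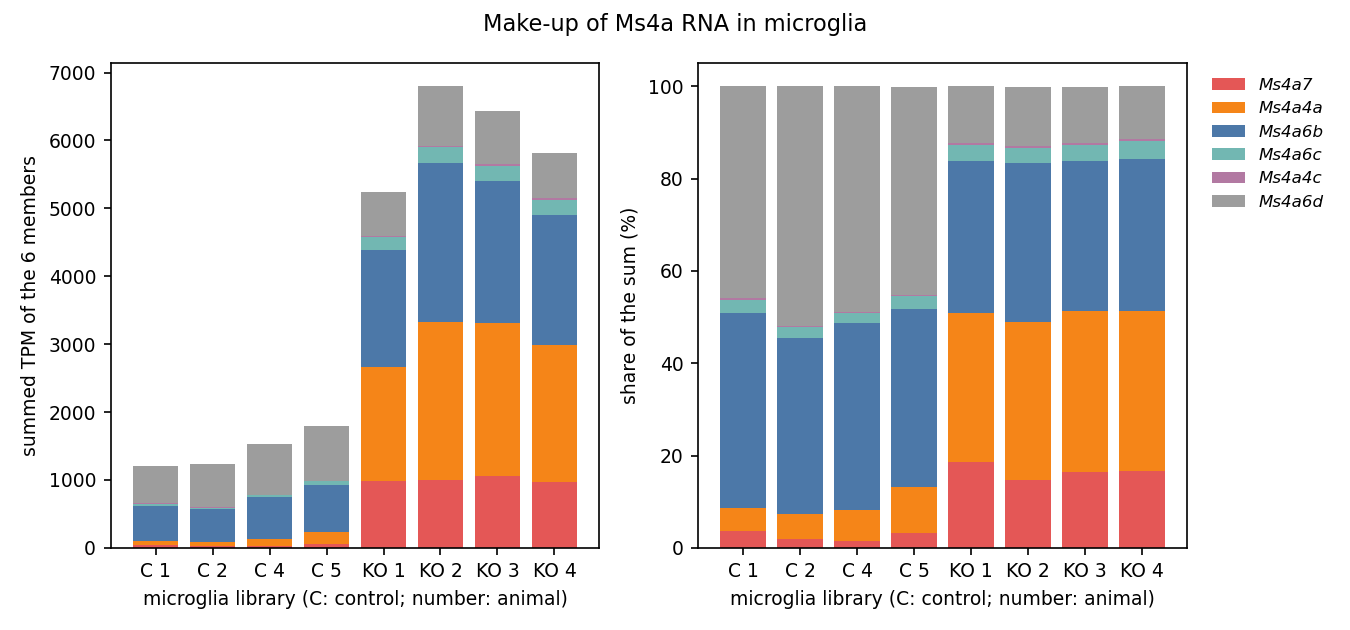
Stacked bars show the 6 members in each microglia library, in TPM on the left and as a percentage of their sum on the right, with C for control and KO for the targeted animals. Control bars end between 1209 and 1797 TPM and are mostly Ms4a6d and Ms4a6b, while KO bars end between 5242 and 6801 TPM with Ms4a4a, Ms4a6b and Ms4a7 as the large parts.

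Both genotypes had far more Ms4a RNA in microglia than in astrocytes, with all 6 members called higher and no overlap in either genotype. For all 6 the microglia libraries were enough to pass the filter on low values. Ms4a7, Ms4a6c and Ms4a4c in controls, and Ms4a4c in KO animals, passed it through those libraries alone. The choice of genes to test was thus not independent of the difference, and the count of 6 carries that limit. Over all genes 26.2% were called higher in microglia of controls and 26.4% in those of KO animals (limma, adjusted p under 0.05), and 22.6% and 24.7% had all microglia values above all astrocyte values. In controls the log2 difference between cell types ran from 1.82 for Ms4a4c to 8.39 for Ms4a6d, with Ms4a6b at 8.33. In KO animals, ranked from the microglia-higher end of the 15365 genes tested, Ms4a4a came first at 8.38 (SE 0.588, limma adjusted p = 1.13e-06). Ms4a6b was next, at 8.29. Some genes higher in astrocytes differed by more in the other direction. Ms4a6d followed at 7.81 (rank 12), Ms4a7 at 7.63 (rank 27), Ms4a6c at 6.79 and Ms4a4c at 4.24.

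In astrocytes the members were at the edge of detection. Ms4a7 was at 0, 0.1, 0, 0.3 and 0.1 TPM in control astrocytes and at 16.3, 1.5, 3.3 and 2.6 TPM in KO astrocytes. Ms4a4a was at 0, 0, 0, 0.7 and 1.3 TPM in controls and at 20.4, 2.0, 7.8 and 1.6 TPM in KO. The KO values lay above all controls for Ms4a7, Ms4a4a and Ms4a4c, as for 2.94% of all genes tested, and KO animal 1 was the highest library for all 6 members. Ms4a6b was at 0.3, 0, 0, 2.0 and 3.5 TPM in control astrocytes and at 20.1, 2.1, 7.0 and 2.2 TPM in KO astrocytes. Ms4a6c and Ms4a4c reached at most 0.4 and 0 TPM in controls and at most 2.9 and 0.8 TPM in KO. Ms4a6d was at 0.2, 5.0, 0.7, 0.3 and 1.2 TPM in controls and at 9.0, 0.7, 1.1 and 2.3 TPM in KO, overlapping throughout.

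No member was called in astrocytes. The fit tested 4 of them, and over all 15231 genes 0.00657% were called (1 gene, higher). Ms4a7 passed the filter on low values through the KO libraries alone, and for Ms4a4a and Ms4a6b the KO libraries were enough to pass it, so for these the choice of genes to test was not independent of the difference. The log2 differences were 2.22 for Ms4a7 (SE 0.474, limma adjusted p = 0.221), 2.24 for Ms4a4a (adjusted p = 0.284), 1.85 for Ms4a6b (adjusted p = 0.336) and 0.69 for Ms4a6d (adjusted p = 0.631). Unadjusted limma p-values were under 0.05 for Ms4a7 (0.000846), Ms4a4a (0.00348) and Ms4a6b (0.0174). Taken alone, in exact two-sided permutation tests, Ms4a7, Ms4a4a and Ms4a4c each gave p = 0.00794, the smallest that 4 against 5 allows. The same test gave 0.0159 for Ms4a6c, 0.0556 for Ms4a6b and 0.365 for Ms4a6d.

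RNA of Tyrobp and Fcer1g, signalling chains of myeloid cells, was present in the same astrocyte libraries. Tyrobp, chosen after its values were seen, was at 4.3, 36.0, 6.5, 8.3 and 13.2 TPM in control astrocytes and at 112.0, 8.0, 27.0 and 14.0 TPM in KO astrocytes. KO animal 1 was again the highest. Tyrobp overlapped between genotypes in microglia, at 3854.0 to 5504.4 TPM in controls and 4617.6 to 5521.5 TPM in KO, so each member was also expressed as a percentage of Tyrobp in its own library. Ms4a7 stood at 0.447% to 1.55% of Tyrobp in control microglia and 17.6% to 21.8% in KO microglia. In astrocytes it stood at 0% to 3.61% in controls and 12.2% to 18.8% in KO. Ms4a7 was separated by genotype in both sorted populations on this scale. Its KO astrocyte values lay partly below the range of KO microglia and partly in its lower end. Ms4a4a stood at 1.12% to 4.60% and 30.8% to 50.4% in microglia of the genotypes, and at 0% to 9.85% and 11.4% to 28.9% in astrocytes. Ms4a6d overlapped between genotypes in both, at 10.5% to 21.0% and 11.7% to 19% in microglia and at 3.61% to 13.9% and 4.07% to 16.4% in astrocytes. The other members differed from Ms4a7. Ms4a6b overlapped between genotypes in astrocytes, at 0% to 26.5% and 15.7% to 26.2%, below the 31.5% to 50.6% of KO microglia. Ms4a6c overlapped there too, at 0% to 3.03% and 2.5% to 5.71%. Ms4a4c stood at 0.714% to 2.5% in KO astrocytes, above the 0.379% to 0.568% of KO microglia. In KO astrocyte library 1 the levels of Ms4a7 and Tyrobp were 1.62% and 2.18% of the KO microglia mean. The 12 microglia markers summed to 332 to 394 TPM in control astrocytes and 267 to 494 TPM in KO astrocytes. The part of myeloid cells or their RNA in the astrocyte values was not tested.

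**Figure D4:**
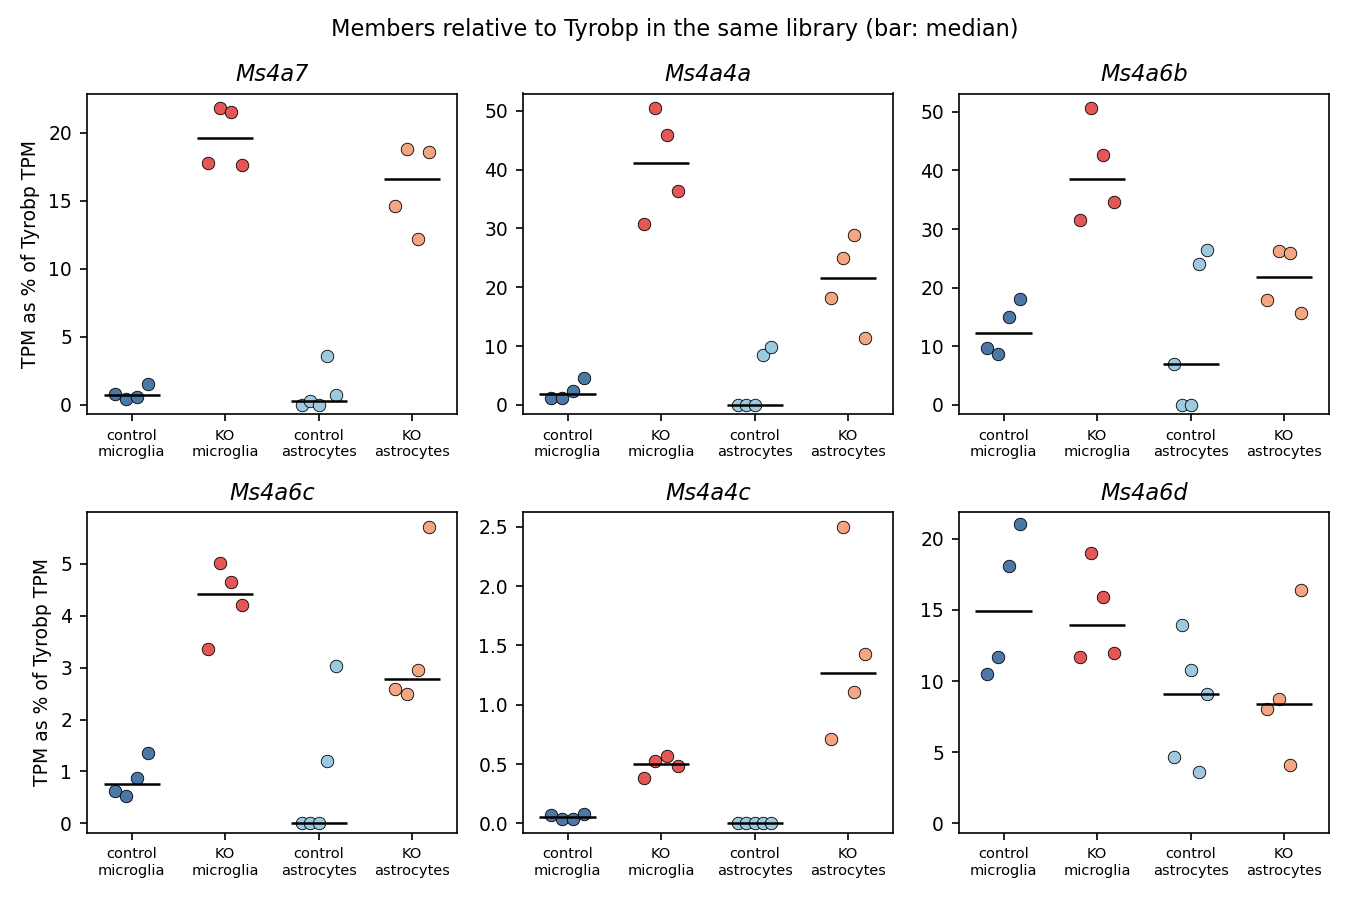
Each point is the TPM of a member as a percentage of Tyrobp TPM in the same library, with bars at group medians, the 4 groups on the horizontal axis and a separate vertical scale per panel. For Ms4a7 the KO points of microglia (17.6% to 21.8%) and astrocytes (12.2% to 18.8%) are both far above the control points, while for Ms4a6d all 4 groups overlap.

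Whether the difference between genotypes was larger in microglia or in astrocytes depended on the scale. As a ratio of mean TPM it was 26.4 in microglia and 59.2 in astrocytes for Ms4a7, and 5.81 and 11.8 for Ms4a6c. For Ms4a4a it was 20.5 and 19.9, and for Ms4a6b 3.5 and 6.77. Ms4a4c was listed at 0 in all control astrocytes, so no ratio is given. The astrocyte ratios rest on control means of at most 0.4 TPM for Ms4a7, Ms4a4a and Ms4a6c, near the last decimal of the files. On the log2(TPM + 1) scale the difference was larger in microglia for 4 members, and over 17087 genes 15.5% were called, 6.63% in that direction and 8.87% in the other (limma over all 17 libraries). It was larger by 2.58 for Ms4a7 (SE 0.594, limma adjusted p = 0.00647), by 2.43 for Ms4a4c (SE 0.259, adjusted p = 5.16e-06) and by 1.68 for Ms4a6c (SE 0.376, adjusted p = 0.00535). In astrocytes Ms4a4c reached at most 0.8 TPM, so little difference could be seen there on this scale. Ms4a4a was at the threshold, with 2.23 (SE 0.734, limma adjusted p = 0.0498), and 20 of 27 alternative settings gave an adjusted p above 0.05. Ms4a6b (-0.04, limma adjusted p = 0.982) and Ms4a6d (-0.59, adjusted p = 0.636) did not pass. The calls depended on the value added before taking logs. With 0.1 TPM in place of 1 TPM, 0 members were called and Ms4a7 gave 0.33 (limma adjusted p = 0.844).

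Of 17 other family genes 15 were listed, and 5 had a mean of at least 1 TPM in a group. Among the 4 that could be tested in microglia 3 rose and 1 did not pass. Ms4a14, the gene next to Ms4a7, was at 1.9, 1.1, 0.5 and 1.6 TPM in control and 17.3, 18.4, 25 and 16.5 TPM in KO microglia. Its log2 difference was 3.18 (SE 0.237, limma adjusted p = 9.17e-06), with no overlap. Tmem176a and Tmem176b, related 4-span proteins whose genes overlap each other on chromosome 6, rose from 310.1 ± 30.0 to 680.7 ± 18.1 TPM and from 68.9 ± 9.96 to 175.1 ± 5.92 TPM (SD, n = 4 each). Their log2 differences were 1.14 and 1.34 (limma adjusted p = 9.75e-06 and 1.66e-05). Both were also present in astrocytes, at 186.6 ± 15.1 TPM (SD, n = 5) for Tmem176a in controls and 134.4 ± 35.8 TPM (SD, n = 4) in KO, a log2 difference of -0.51 that did not pass (limma adjusted p = 0.324).

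Ms4a4b, known from T cells and lying between Ms4a4c and Ms4a6c, was at 8.2, 0.1, 2.3 and 0.8 TPM in control and 4.8, 4.8, 4.7 and 3.8 TPM in KO microglia. The groups overlapped through control animal 1 alone, and the log2 difference of 0.98 did not pass (limma adjusted p = 0.225). Without control animal 1 it was 1.56 (limma adjusted p = 0.00995). As that library alone made the groups overlap, leaving it out was not independent of the difference. In 16 of 18 alternative settings Ms4a4b stayed uncalled. The library of control animal 1 also held Ms4a1, the B cell gene CD20, at 3.2 TPM, against at most 0.1 TPM in the other microglia libraries. Ms4a4d, between Ms4a6b and Ms4a6d, reached at most 1.6 TPM in microglia and 4.2 TPM in astrocytes, and its astrocyte groups overlapped. The other 10 Ms4a genes listed stayed below a mean of 1 TPM in every group.

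**Figure D5:**
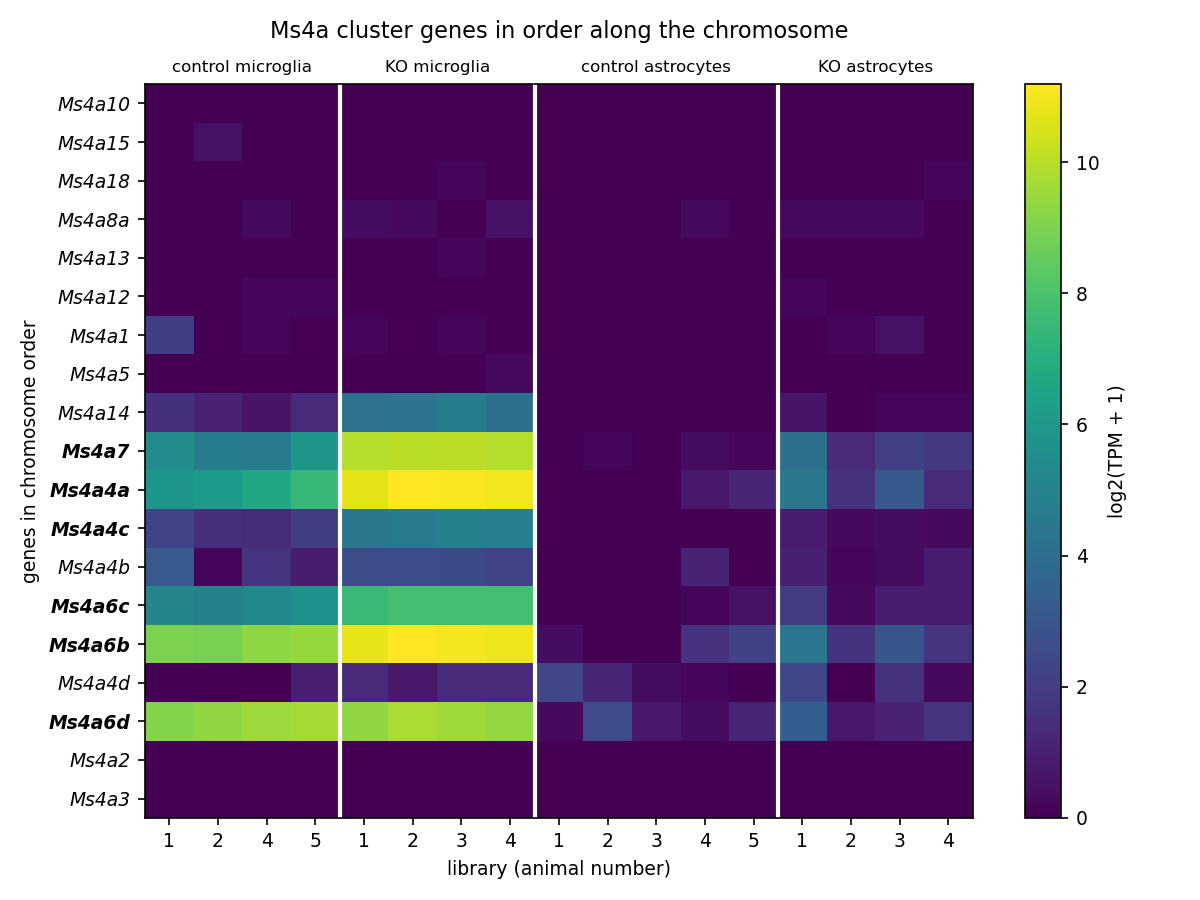
Rows are the 19 Ms4a genes in their order along chromosome 19, with the members in bold, columns are the 17 libraries by group and animal number, and colour is log2(TPM + 1). Signal lies in the block from Ms4a14 to Ms4a6d and is strongest in KO microglia, while the genes on either side of the block are near 0 except Ms4a1 in control microglia of animal 1 (3.2 TPM).

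Genes for proteins known or proposed to act with Ms4a proteins did not move as one. Of 12 tested in microglia, 4 rose, 3 fell and 5 did not pass, with a median log2 difference of 0.11. Clec7a, the glucan receptor that Ms4a4a binds, rose from 22.35 ± 4.3 to 85.42 ± 15.7 TPM (SD, n = 4 each, log2 difference 1.89, limma adjusted p = 4.91e-05). By the smallest p the first 4 were Cd9, Trem2, Cd63 and Clec7a. Cd9, a tetraspanin of the cell surface, fell by 2.12 on the log2 scale, from 3545 ± 293 to 818.3 ± 80.6 TPM. Trem2, a lipid-sensing receptor of microglia, fell by 1.29, from 2330 ± 187 to 950.4 ± 25.7 TPM, and Cd63, a tetraspanin of late endosomes, rose by 1.26, from 353.4 ± 25.4 to 844.9 ± 24.0 TPM (SD, n = 4 each). The limma adjusted p-values were 4.47e-07, 2.21e-06 and 2.61e-06.

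Markers of border-associated macrophages were measured because Ms4a7 and Ms4a4a are also made there. Of 18 listed markers 17 were tested in microglia, and 11 rose, 2 fell and 4 did not pass. Their summed level was between 519 and 898 TPM in control and between 5820 and 6570 TPM in KO microglia. The 3 most abundant in KO were Pf4 (2825 ± 314 TPM), Mrc1 (1629 ± 252 TPM) and Dab2 (427.4 ± 71.7 TPM; SD, n = 4). Ms4a7 stood at 25.5% to 56.0% of Mrc1 in control microglia and at 56.0% to 77.4% in KO microglia, and Ms4a4a at 75.4% to 111% and 100% to 160%. Ms4a6d stood at 441% to 827% and 38.3% to 52.7% of Mrc1.

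The other 8 border macrophage markers that rose were Ccl24 (19.3-fold in the ratio of mean TPM), Clec4n (16.1-fold), Mgl2 (8.91-fold), Clec10a (5.73-fold), Lilra5 (4.77-fold), Folr2 (4.52-fold), Stab1 (3.83-fold) and F13a1 (2.04-fold). F13a1 was the one among them whose groups overlapped. The 6 tested markers that did not rise were Lyve1, Cbr2, Cd209f, Cd163, Colec12 and Cd36, and all genes of this paragraph were named after their values were seen. Lyve1, a hyaluronan receptor, was at 18.7, 4.4, 31.9 and 75.1 TPM in control and 8.6, 9.7, 5.4 and 12.1 TPM in KO microglia (limma adjusted p = 0.212). Cbr2 fell by 0.54 on the log2 scale, from 50.2 to 81.9 TPM in controls to 38.0 to 43.3 TPM in KO (limma adjusted p = 0.0283). Cd209f fell by 1.43, from 7.6 to 15.5 TPM in controls to 2.5 to 4.7 TPM in KO (adjusted p = 0.00198). Cd163, a haemoglobin scavenger receptor, overlapped at 6.3 to 15.3 TPM and 8.6 to 17 TPM. Colec12 (limma adjusted p = 0.0627) and Cd36 (adjusted p = 0.808) did not pass either. In these bulk libraries a change in the share of a cell type and a change of RNA per cell cannot be told apart.

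All 12 microglia markers fell in KO microglia, from a sum of 48200 to 52200 TPM to one of 10700 to 12000 TPM, and all 12 remained detected. Among the abundant ones in controls were P2ry13 (4858 TPM) and P2ry12 (3747 TPM), and these means were 908.4 and 241.5 TPM in KO. Each list of blood cell markers summed to less than the microglia list in both genotypes. Of 10 monocyte markers, which summed to 6.1 to 11.6 TPM in controls and 26.5 to 29.6 TPM in KO, 2 passed the filter on low values, and of these Itga4 rose and Ccr2 fell. Itga4, an integrin chain, went from 0.2 to 1.6 TPM to 22.5 to 28.4 TPM, while Plac8 and Chil3 were listed at 0 in all KO microglia and Chil3 and Vcan in all controls. Neutrophil markers summed to 30.5 to 69.4 TPM in controls and 12.3 to 17.1 TPM in KO, and Ly6g was listed at 0 throughout. Most of the mean sum was Csf3r, at a mean of 31.2 TPM in controls and 9.875 TPM in KO. The highest control sum was that of animal 2, which had S100a8 at 17.4 and Retnlg at 14.4 TPM. Of 3 neutrophil markers tested 1 rose, 1 fell and 1 did not pass. Of 4 lymphocyte markers tested 2 fell, Il7r from a mean of 41.67 to 0.2 TPM (log2 difference -5.12, limma adjusted p = 1.52e-06) and Klrd1 from 6.4 to 0.075 TPM (-2.76, adjusted p = 6.38e-06). The lymphocyte list summed to 127 to 165 TPM in controls and 82.6 to 95.5 TPM in KO, mostly Cd79b (90.42 and 82.55 TPM, limma adjusted p = 0.49). Pax5 was at 0 in both groups, and Cd3e was at 0 in controls and reached 1.1 TPM in KO. Cd3g, named after its values were seen and below the filter, went the other way, from 0 to 0.1 TPM in controls to 0.8 to 5.6 TPM in KO. The part of these cell types in the Ms4a values was not tested.

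Across the 17 libraries each member had close companions among 10413 genes, ranked by Pearson's r of log2(TPM + 1). The r values describe how libraries of 2 cell types and 2 genotypes line up, and the libraries share those groups. Ms4a7 was most like Cybb (r = 0.994), the catalytic chain of the phagocyte NADPH oxidase, then Clec4n and Gpr65. Ms4a4a was most like Clec4a1 (r = 0.996), then Gpr65 and Mrc1. Cybb went from 19.75 ± 5.38 to 516.7 ± 47.1 TPM and Clec4a1 from 69.03 ± 22.5 to 1162 ± 118 TPM in microglia (SD, n = 4 each).

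Ms4a6b, with its smaller rise, was most like the transcription factor gene Maf (r = 0.995), which went from 316.6 ± 55.8 to 869.3 ± 150 TPM, then Slamf9 and Igsf6. Ms4a6c was most like Lilra5 (r = 0.998), then BE692007 and Phf11b. Ms4a4c was most like Cd72 (r = 0.994), then H2-Q7 and Lilr4b. Ms4a6d, which did not pass between genotypes, was most like Cyth4 (r = 0.998), then Ptpn6 and Bcl2a1a, genes of white blood cells whose means were also similar in control and KO microglia. Cyth4 was at 1060 ± 76.9 TPM in control and 898.1 ± 104 TPM in KO microglia (SD, n = 4 each).

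Ms4a6c and BE692007 also share sequence. In the GENCODE M21 transcripts 55.1% of the 61-base stretches of Ms4a6c also occurred in another gene, on either strand, and 971 of the 981 shared stretches were in BE692007. Without a stated strand setting, reads of this pair cannot be told apart, and the Ms4a6c values are uncertain to that extent. The same share was 5.67% for Ms4a4c (all with Ms4a4b), 3.05% for Ms4a6b, 1.42% for Ms4a6d and 0% for Ms4a7 and Ms4a4a. The 2 genes with the largest rises thus had no stretch of that length in common with another gene.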

How the data were processed

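RNA of microglia and astrocytes was measured in 17 libraries, 1 per cell type and animal, sequenced as paired reads of 61 bp per the labels. The authors deposited TPM values with 1 decimal for each library. Per the submitters' processing notes the tools were featureCounts 1.6.2, STAR 2.6.1e, cutadapt 1.9.1 and Trim Galore 0.4.2, and the build mm10. The gene annotation, the strand setting and the treatment of reads with several matches are not given in the sources used here. TPM values keep no read depth, so it is unknown and no counting interval is given.

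Each value entered as log2(TPM + 1). A gene was tested if 4 libraries of the fit (fewer where a group was made smaller) had 1 TPM or more. The test was limma's (version 3.58.1, R 4.3.3), two-sided and with a variance trend, Benjamini-Hochberg adjusted over all tested genes at a threshold of 0.05. A fold change on this scale understates changes of low genes. Genotypes were compared within each cell type, cell types within each genotype, and the 2 genotype differences in 1 contrast over 17 libraries. Single genes were also tested with exact two-sided permutation tests of log2(TPM + 1). The code was tested on simulated data. Microglia and astrocyte libraries with the same number come from the same mouse per the titles, so the cell types are paired (correlations of deviations from 0.0178 to 0.219), and a term for the animal changed no member's call between cell types. Animals differ within a group, and the limma p-values set a group difference against that spread, moderated over all genes. The contrast over 17 libraries used 1 spread for both cell types, and the main fits had no term for the animal.

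The members and all lists were chosen with earlier results of these data known. Named are the members, Tgfb1, other family genes whose mean reached 1 TPM in a group, up to 4 called partner genes by smallest p, the 3 most abundant markers of a list and those at 0, and the 3 genes most like each member (mean of 5 TPM or more in a group, no predicted names). Others are stated to be chosen after their values were seen. Positions come from GENCODE M21 and promoters from RefSeq. Protein sequences were not analysed here, and some markers that the rule names are not reported here. Alternatives were other pseudocounts, filters and scalings, no variance trend, 1 fit over all groups, the animal number as a term, each kind of control alone, and leaving out each library. Tables and plots used numpy 2.4.6, pandas 2.3.3, matplotlib 3.10.9 and Python 3.11.15.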

Additional observations from a re-analysis of the deposited data

Results flagged for a closer look

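Among 39 sets of values of a gene in a group, 9 had a library that stood apart from the others. The rule's nominal rate of about 1 in 20 is for independent, normally distributed values. These were TPM values with 1 decimal, some at the edge of detection, and the genes share the same libraries. That rate therefore does not apply here, and whether 9 of 39 is more than chance gives was not tested. KO astrocyte library 1 was high for Ms4a7 (16.3 TPM), and KO microglia library 1 was low for Ms4a6c (183.7 TPM). Control astrocyte library 2 was high for Ms4a6d (5.0 TPM), library 4 for Ms4a4b (1.1 TPM) and library 1 for Ms4a4d (4.2 TPM). In KO microglia library 4 was low for Ms4a4b (3.8 TPM), library 2 low for Ms4a4d (0.7 TPM) and library 3 high for Tmem176a (707.6 TPM). Control microglia library 1 was high for Tgfb1 (3.4 TPM).

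The difference between genotypes differed between the cell types, by the limma contrast of log2(TPM + 1), for 8 genes. Microglia minus astrocytes was 2.58 for Ms4a7, 2.23 for Ms4a4a, 1.68 for Ms4a6c, 2.43 for Ms4a4c, 2.97 for Ms4a14, 1.64 for Tmem176a, 1.80 for Tmem176b and -0.71 for Tgfb1 on that scale. For the members this depended on the value added before taking logs: with 0.1 TPM added, 0 members were called and Ms4a7 gave 0.33 (limma adjusted p = 0.844). The ratio of mean TPM was larger in astrocytes than in microglia for Ms4a7 (59.2 against 26.4) and Ms4a6c (11.8 against 5.81). Ms4a4a was at the threshold and lost its call in 20 of 27 alternative settings. Tgfb1 was at most 0.3 TPM in astrocytes, Ms4a4c at most 0.8 TPM and Ms4a14 at most 0.5 TPM, so little difference could be seen there for these genes.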

How the results depend on the processing

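In microglia 5 members were called in all 19 alternative settings, and between cell types all 6 were called except Ms4a4c in control animals at a filter of 5 TPM, where it was not tested. In astrocytes 1 member, Ms4a7, was called in 1 fit over all 4 groups, where its control astrocyte values were all at or below 0.3 TPM, and 0 in the other settings. For the difference between cell types of the genotype effect, 0 members were called with 0.1 TPM added, 2 with controls without Y-linked RNA and 1 with controls that had it, and 3 to 4 when a library was left out. Signs turned for small differences: Ms4a6d in microglia gave -0.0366 with quantile normalization and -0.0855 against controls with Y-linked RNA. Ms4a6b in the difference of effects gave 0.92 with 5 TPM added, 0.0547 with median-of-ratios scaling, 0.17 with the replicate block, 0.18 against controls with Y-linked RNA, and -0.38 to 0.54 with a library left out. Ms4a4d gave -0.70 in astrocytes against controls without Y-linked RNA, -0.14 in the difference of effects against those with it, and -0.0133 between KO cell types with 5 TPM added. With a library left out it ran from -0.19 to 0.60 in astrocytes and from -0.20 to 0.60 between KO cell types. The numbers of control and KO animals share no source (correlations of deviations from -0.0918 to 0.185). With the replicate block 2079 genes were called in microglia against 3711, and all 5 members kept their calls. In astrocytes 0 genes were called with the replicate block, 3 with no filter, 88 in 1 fit over all groups, 51 and 7 against controls without and with Y-linked RNA, and 0 to 5 without a library, against 1. The causes were not tested. TPM values keep no depth, so values near 0 in astrocytes limit every ratio there.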
